A study of Mus musculus with 2 samples.

Results

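The Dlk1-Meg3 domain is a cluster of imprinted genes on the distal part of mouse chromosome 12. It is described here through 6 genes, namely Dlk1, Meg3, Rtl1, Rian, Mirg and Dio3, which were chosen by symbol out of 55536 annotated genes and have 56 annotated transcripts in all. Total RNA was sequenced from the adrenal gland, an endocrine organ with a steroid-making cortex and a medulla of chromaffin cells. It came from B6CASTF1/J males aged 4 days with no treatment in the labels, an F1 hybrid of C57BL/6J and CAST/EiJ, which form 1 group of 2 biological replicates with no second condition. The labels give the replicates different male numbers but a shared donor label, and they are taken as separate animals by those numbers. Each value below is given for replicate 1 and replicate 2, with no test between conditions and no p-value. The deposited tables do not separate the parental alleles, so every comparison is between genes and not between alleles.

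Imprinted genes are expressed only or mainly from 1 of the parental chromosomes, for some genes not in every tissue. In this domain the protein-coding genes Dlk1, Rtl1 and Dio3 are known to be expressed from the paternal chromosome, and the non-coding RNAs Meg3, Rian and Mirg from the maternal one. A germline methylated region between Dlk1 and Meg3 carries methylation on the paternal chromosome and sets this pattern. The maternal RNAs are known as hosts of snoRNAs and miRNAs, and the paternal proteins as regulators of growth, placental vessels and thyroid hormone breakdown. In the rat adrenal gland the Dlk1 protein is known as ZOG, a protein of the outer cortex.

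Depth was 32231301 gene-level counts for replicate 1 and 30292851 for replicate 2, at which 3 counts, the floor for an undetected gene, correspond to 0.0931 and 0.0990 CPM. All intervals and floors here cover counting error only. A gene is called detected below at a mean of 1 TPM or more, which is a separate limit from this floor. The markers fixed for the gland were present, with 6 of 6 cortex and 6 of 6 chromaffin markers at 1 TPM or more, and no marker of any list was at 0 in both libraries. Summed TPM of the cortex markers was 8468 in replicate 1 and 6495 in replicate 2, and that of the chromaffin markers 2121 and 1915. Markers of several other tissues stood higher in replicate 2, while 4 kidney markers summed to 6.43 and 2.55 TPM. Summed TPM of 6 liver markers was 161 in replicate 1 and 4737 in replicate 2, of 6 skeletal muscle markers 476 and 871, of 7 capsule and stroma markers 909.5 and 1308, and of 4 erythroid markers 1689 and 3101. The part of these cells in the differences given below was not tested, and in bulk tissue fewer cells of a type and less RNA per cell cannot be told apart.

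Levels spanned 3 orders of size along the domain, from Meg3 among the most abundant long non-coding RNAs of the gland to Dio3 below the detection level of 1 TPM. TPM is a count scaled by transcript length to a fixed total per library, and is the scale used for levels between genes. Meg3 averaged 776 ± 179 TPM, Dlk1 403 ± 15.5 TPM, Rian 336 ± 37.9 TPM, Mirg 32.8 ± 5.08 TPM, Rtl1 3.09 ± 0.778 TPM and Dio3 0.505 ± 0.0919 TPM (mean ± SD, n = 2 each). The 5 genes above Dio3 were detected. In this order each gene's lower library stood above the next gene's higher library in the alignment-based tables. The alignment-free means kept this order, at 743 TPM for Dlk1 and 707 TPM for Rian. There the libraries of these genes overlapped, and Rian stood above Dlk1 in replicate 2, at 757 against 755 TPM.

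**Figure D1:**
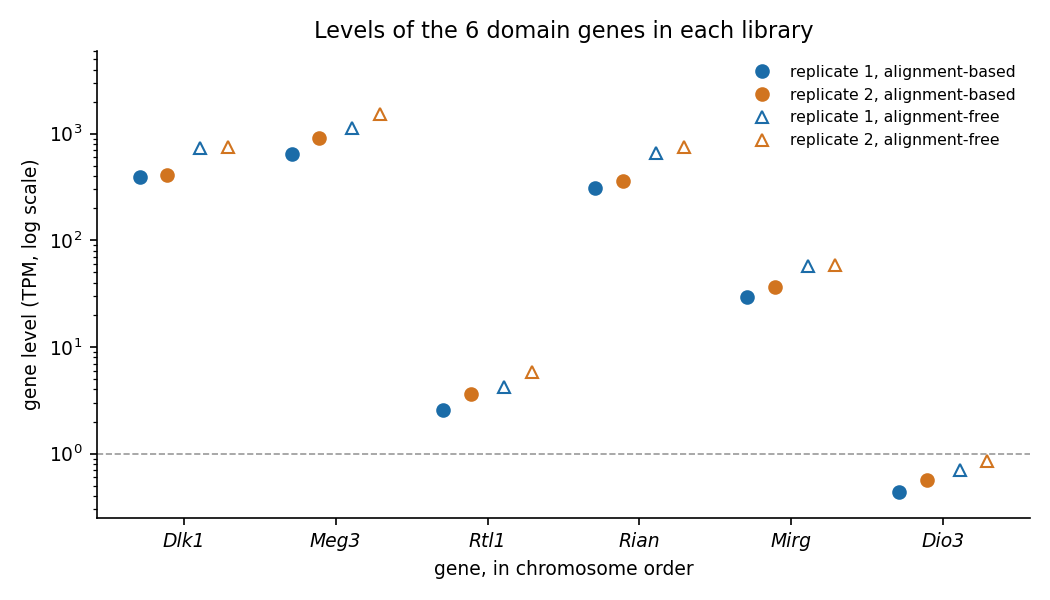
Level of each domain gene in TPM on a log axis, with filled circles for the alignment-based tables and open triangles for the alignment-free tables, replicate 1 left of replicate 2. Meg3, Dlk1 and Rian lie above 300 TPM and Dio3 below the dashed line at 1 TPM in both kinds of table, while Mirg averages 32.8 and 58.6 TPM and Rtl1 3.09 and 5.05 TPM in the alignment-based and alignment-free tables.

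The 6 genes together held 1383 TPM in replicate 1 and 1720.0 TPM in replicate 2, or 0.214% and 0.263% of all gene counts. The 3 maternally expressed RNAs summed to 988.5 and 1302 TPM, against 394.9 and 418 TPM for the 3 paternally expressed mRNAs. The log2 ratio of maternal RNAs over paternal mRNAs was thus 1.32 in replicate 1 and 1.64 in replicate 2 (1.48 ± 0.22, SD, n = 2), so the maternal RNAs stood higher in both libraries. Alignment-free values gave 1.32 and 1.63. Most of that sum rested on Meg3 against Dlk1, whose log2 ratio was 0.73 and 1.12.

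All 6 genes had a lower value in replicate 1 than in replicate 2, and none passed 1.5-fold. After TMM scaling, 0 of 6 were past 1.5-fold in either direction, against 11.6% of the 18160 genes tested, and 0 of 6 were past it with the higher value in replicate 2, against 8.69%. Of all tested genes 50.0% were higher in replicate 2. The exact 95% counting interval of the log2 ratio, replicate 1 over replicate 2, lay below 0 for Meg3, Rtl1, Rian and Mirg, 4 of 6, against 19.9% of all tested genes. Such an interval narrows as counts rise, and these shares were not matched for counts. The median log2 ratio of the members was -0.18, beside -0.00018 over all genes tested. The median absolute log2 ratio of all tested genes was 0.166, and 18.6% of tested genes differed by more than Meg3 did.

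**Figure D2:**
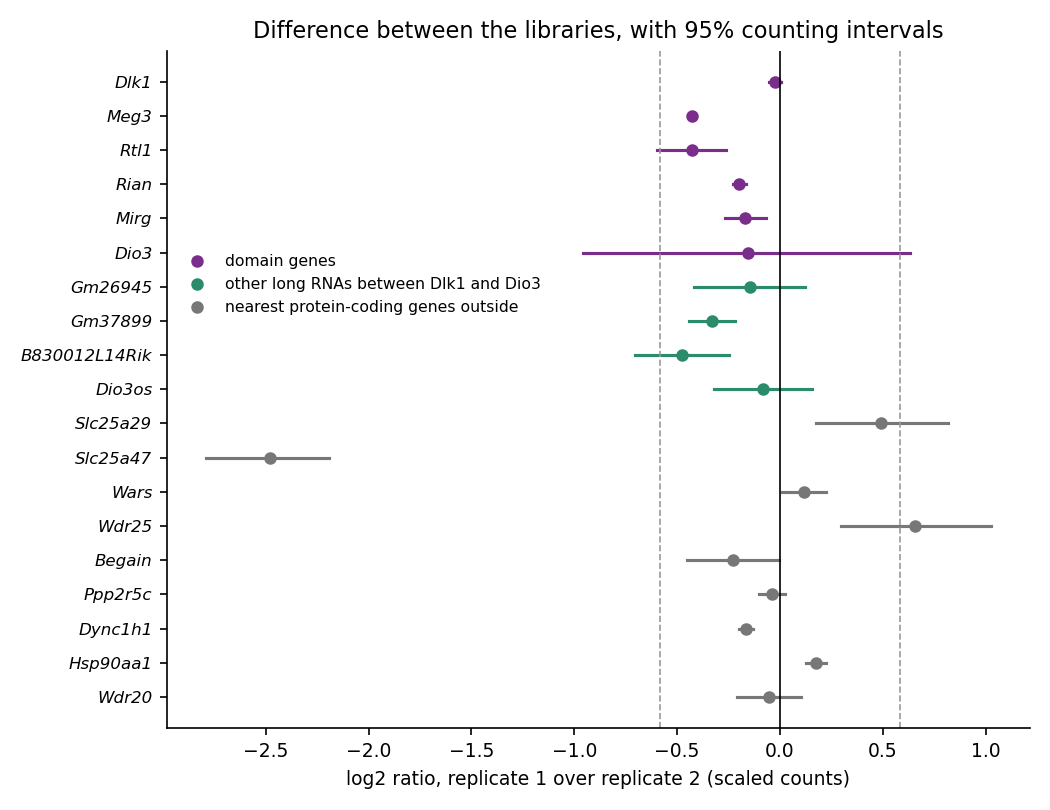
Log2 ratio of scaled counts, replicate 1 over replicate 2, with 95% counting intervals as lines, for the domain genes, the other long RNAs between Dlk1 and Dio3, and the nearest protein-coding genes outside, and dashed lines at 1.5-fold. The domain genes lie between -0.43 and -0.02 inside the dashed lines, while outside the domain Slc25a47 lies at -2.48 and Wdr25 at 0.66.

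Dlk1 (ENSMUSG00000040856.17, chr12:109452823-109463336, plus strand, mm10) encodes a membrane protein with EGF-like repeats that is related to Notch ligands and keeps precursor cells undifferentiated. It had 19469 counts and 391.9 TPM in replicate 1, and 19012 counts and 414 TPM in replicate 2. The log2 ratio was -0.025 with an interval of -0.054 to 0.0041, so the libraries differed by less than counting error, and 91.2% of tested genes differed more. Among protein-coding genes, 93 had a higher mean TPM. The alignment-free tables put Dlk1 at 732 and 755 TPM.

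Splicing inside the last coding exon sorts the Dlk1 transcripts into known protein forms. The removed stretch lies next to the membrane. In the mouse, forms that lack the protease site there are known to stay tethered to the cell, while forms that keep it also give a soluble protein; which spliced transcripts keep the site was not worked out here. The whole exon is kept in Dlk1-205 and Dlk1-201, which code for 385 residues. An in-frame intron of 219 bases (73 residues) is removed in Dlk1-203, of 285 bases (95 residues) in Dlk1-204, of 153 bases (51 residues) in Dlk1-206 and of 225 bases (75 residues) in Dlk1-208. These 30-base stretches of the annotated transcripts show the difference, with the bases after the splice point in capitals; for Dlk1-205 the capitals are the unspliced continuation from base 109459893.
Dlk1-205: ctccagcacacccagGTGAGCTTCGAGTGT
Dlk1-203: ctccagcacacccagGGACAGGCCATCTGC
Dlk1-204: acctgcagccgcccgGCCATCTGCTTCACC
Dlk1-206: ctccagcacacccagCCCGAGCAACACATC
Dlk1-208: ctccagcacacccagGCCATCTGCTTCACC
Dlk1-203, Dlk1-206 and Dlk1-208 share the splice start after base 109459892 and differ in where they rejoin. Dlk1-204 leaves the exon earlier, after base 109459832, and rejoins at base 109460118 as Dlk1-208 does.

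Both kinds of form were abundant. In the alignment-based tables the whole-exon forms took 58.1% of Dlk1 TPM in replicate 1 and 58.9% in replicate 2, against 39.6% and 38.6% for the 6 spliced forms. That is 1.47 and 1.53 times as much. Besides the spliced forms named above, the 6 include Dlk1-202 and Dlk1-209. Dlk1-209 is a transcript of 483 bases without a protein length in the values used here. It took 9.27% of Dlk1 TPM in replicate 1 and 9.46% in replicate 2, against 0% and 3.27% in the alignment-free tables. The alignment-based margin thus depends in part on placing Dlk1-209 with the spliced forms. The incomplete Dlk1-207 was put in neither class. The alignment-free tables gave 50.7% and 49.4% for the whole-exon forms against 44.6% and 45.9% for the spliced ones, or 1.14 and 1.07 times as much. The whole-exon forms were the larger class in each library and table, but by a smaller margin without alignment.

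Single transcripts depended more on the table. Dlk1-205 took 58.1% and 58.9% of Dlk1 TPM in the alignment-based tables, against 45.4% and 43.5% in the alignment-free ones. Dlk1-204 took 17.6% and 14.3%, against 23.6% and 19.4%. Dlk1-203 took 6.06% and 7.27%, against 18.7% and 20.9%. Dlk1-201, which starts upstream and has the long 3' end, was at 0 in both alignment-based libraries, against 5.31% and 5.89% in the alignment-free ones. Apart from Dlk1-205, Dlk1-207 and Dlk1-210, no Dlk1 transcript has a base of its own that no other Dlk1 transcript holds, so these shares rest on splice junctions and ends.

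Rtl1 (ENSMUSG00000085925.3, chr12:109589193-109600330, minus strand) is a gene derived from a retrotransposon that codes for a protein of 1744 residues, known in the mouse for keeping fetal capillaries of the placenta intact. It had 527 counts and 2.54 TPM in replicate 1, and 681 counts and 3.64 TPM in replicate 2. Counting intervals of the TPM were 2.33 to 2.77 in replicate 1 and 3.37 to 3.92 in replicate 2, which do not overlap. The log2 ratio was -0.43 with an interval of -0.60 to -0.26. The log2 ratio of Rtl1 over Dlk1 on the TPM scale was -7.27 in replicate 1 and -6.83 in replicate 2, so these genes of the same parental chromosome stood far apart. It has 1 annotated transcript, Rtl1-201, of 6358 bases.

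A row of miRNA genes lies on the strand opposite Rtl1, and in the mouse these maternal miRNAs are known to cut the Rtl1 mRNA. Of 114 mature miRNA entries that RefSeq (GRCm38.p6) places between Dlk1 and Dio3, 11 from 6 hairpins are fully complementary to the Rtl1 transcript, and all 11 lie inside its coding bases. No other mouse miRNA of the table matched Rtl1 over its full length. They are shown because they tie a maternal RNA to a paternal mRNA by sequence, 5' to 3', with the seed (bases 2 to 8) in capitals.
miR-431-5p: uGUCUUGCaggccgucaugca
miR-431-3p: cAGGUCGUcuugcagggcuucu
miR-433-5p: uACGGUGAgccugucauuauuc
miR-433-3p: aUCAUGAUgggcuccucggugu
miR-127-5p: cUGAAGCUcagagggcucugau
miR-127-3p: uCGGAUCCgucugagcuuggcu
miR-434-5p: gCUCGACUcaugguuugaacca
miR-434-3p: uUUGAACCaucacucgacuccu
miR-432: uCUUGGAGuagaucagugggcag
miR-136-5p: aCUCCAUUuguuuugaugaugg
miR-136-3p: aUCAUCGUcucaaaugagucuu
Their matches run along the transcript from base 164, for miR-136-3p, to base 5092, for miR-431-5p. No seed is shared among the 11.

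The tables cannot say how much of these miRNAs the gland holds. Of the 67 annotated miRNA genes between Dlk1 and Dio3, 59 have an effective length of 0 in the deposited gene tables, so a 0 there is no measure of their level. Mir433, whose annotated hairpin is 124 bases long, had 18 counts in replicate 1 and 29 in replicate 2. The library kit marks the strand, but the sources used here do not give a strand setting for the counting. Whether reads of Rtl1 were kept apart from reads of RNA from the opposite strand was not tested. Gm26906, a non-coding gene on the minus strand, has 1228 exonic bases that all lie in Meg3 exons. It had 0 counts in replicate 1 and 1 in replicate 2, where the whole Meg3 gene had 32518 and 41991. Expected counts divide reads among transcripts that share them, so these low counts cannot show whether the strands were kept apart.

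Dio3 (ENSMUSG00000075707.5, chr12:110279068-110281097, plus strand) encodes the deiodinase that inactivates thyroid hormone. It was the lowest member, with 28 counts and 0.44 TPM in replicate 1, and 30 counts and 0.57 TPM in replicate 2. Counting intervals of 0.292 to 0.636 TPM and 0.385 to 0.814 TPM overlapped, and the log2 ratio of -0.16 had an interval of -0.96 to 0.63. All 28 counts of replicate 1 went to Dio3-202, a transcript with 304 coding residues, and 24.0 of the 30 counts of replicate 2. With so few counts the share of Dio3-201, at 0% and 26.3% of Dio3 TPM, has little precision.

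Dio3os, the non-coding gene that starts on the other strand next to Dio3, stood higher. The 2 genes are 895 bases apart. Dio3os had 292 counts and 8.79 TPM in replicate 1, and 297 counts and 11.3 TPM in replicate 2. Its log2 ratio over Dio3 was 4.32 in replicate 1 and 4.31 in replicate 2 on the TPM scale. Both genes differed between the libraries by less than counting error, with a log2 ratio of -0.08 for Dio3os and an interval of -0.32 to 0.15.

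Meg3 (ENSMUSG00000021268.17, chr12:109541001-109571726, plus strand), a long non-coding RNA known as a growth suppressor, was the most abundant member. It had 32518 counts and 649.9 TPM in replicate 1, and 41991 counts and 902 TPM in replicate 2. The log2 ratio was -0.43 with an interval of -0.45 to -0.41, so replicate 2 held 1.35 times as much. Of the long non-coding genes, 4 had a higher mean TPM, namely Gm26917, Gm42418, Rmrp and Malat1, and of the protein-coding genes 31 did. The alignment-free tables gave 1130.1 and 1534 TPM. On these, 3 long non-coding genes stood above Meg3.

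**Figure D3:**
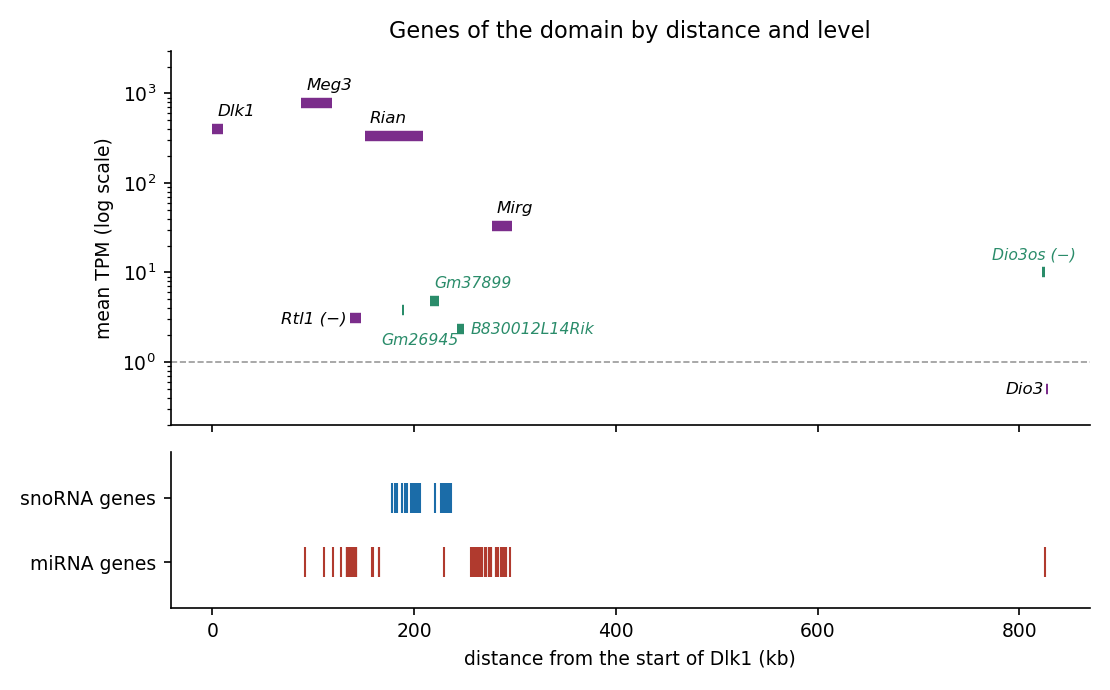
Upper panel, position of each long gene of 1 TPM or more between Dlk1 and Dio3, and of Dio3, as distance from the start of Dlk1 in kb, against mean TPM on a log axis, with minus-strand genes marked (−). Lower panel, positions of the 67 miRNA and 23 snoRNA genes, most of which lie between the start of Meg3 and the end of Mirg. The levels are alignment-based, and on them the stretch between Mirg and Dio3os holds no gene of 1 TPM or more.

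Meg3-205 and Meg3-207 start at the 5' end of the gene, where they took 25.7% and 13.4% of alignment-based Meg3 TPM in replicate 1 and 27.1% and 12.5% in replicate 2. The promoter window that RefSeq gives for this start (chr12:109540746-109541045, plus strand, GRCm38.p6) is shown with the matches to TGACGTCA, TATAAA and CCAAT, searched on both strands, in capitals.
Meg3 promoter: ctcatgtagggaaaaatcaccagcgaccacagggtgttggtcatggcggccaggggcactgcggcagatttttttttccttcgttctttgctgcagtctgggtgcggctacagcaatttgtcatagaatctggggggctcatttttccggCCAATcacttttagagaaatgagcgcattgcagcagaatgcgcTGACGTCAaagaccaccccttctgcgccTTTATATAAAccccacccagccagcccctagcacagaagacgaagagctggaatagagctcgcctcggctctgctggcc
It holds 1 CCAAT at position -100 from the RefSeq start, 1 TGACGTCA at -57, the letters bound by cAMP-responsive factors, and an overlapping pair of TATAAA matches, 1 on each strand, from -29. Of 32544 mouse promoter windows of this length, 1.80% hold TGACGTCA, 13.6% TATAAA and 37.4% CCAAT. The window also holds 13 CpG dinucleotides, where the median window holds 7, and 1 TGCCGC, the letters that ZFP57 binds when methylated, which 11.7% of windows hold. RefSeq also gives a second Meg3 window (chr12:109545148-109545447, plus strand), which holds none of these motifs and 1 CpG. Meg3-209, the leading Meg3 transcript by counts, is annotated to start inside that second window, at base 109545398. Its counts come from its whole length and do not show where the RNA starts. A match is a description of letters, and binding, methylation and start sites were not measured here.

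Which Meg3 transcript leads depends on the quantity. By alignment-based TPM it was Meg3-205 with 26.4% ± 0.97 (SD, n = 2), followed by Meg3-204, Meg3-211 and Meg3-207 at 18.6%, 14.9% and 12.98%. By alignment-free TPM, Meg3-202 at 26.8% ± 1.30 and Meg3-205 at 26.8% ± 0.18 were level, with Meg3-208 at 23.4%. Meg3-202 was ahead in replicate 1, at 27.8% against 26.7%, and behind in replicate 2, at 25.9% against 26.9%. Meg3-205 thus kept about the same share in both kinds of table. The alignment-free tables gave Meg3-204 0% in replicate 1 and 1.04e-07% in replicate 2, and Meg3-211 0.00027% and 3.05%. By counts the leading transcript was Meg3-209, which is 14548 bases long and took 38.8% of Meg3 counts but 4.12% of its TPM. Of its bases 73.6% lie in no other Meg3 transcript, and the alignment-free tables also gave it 39.9% of the counts.

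**Figure D4:**
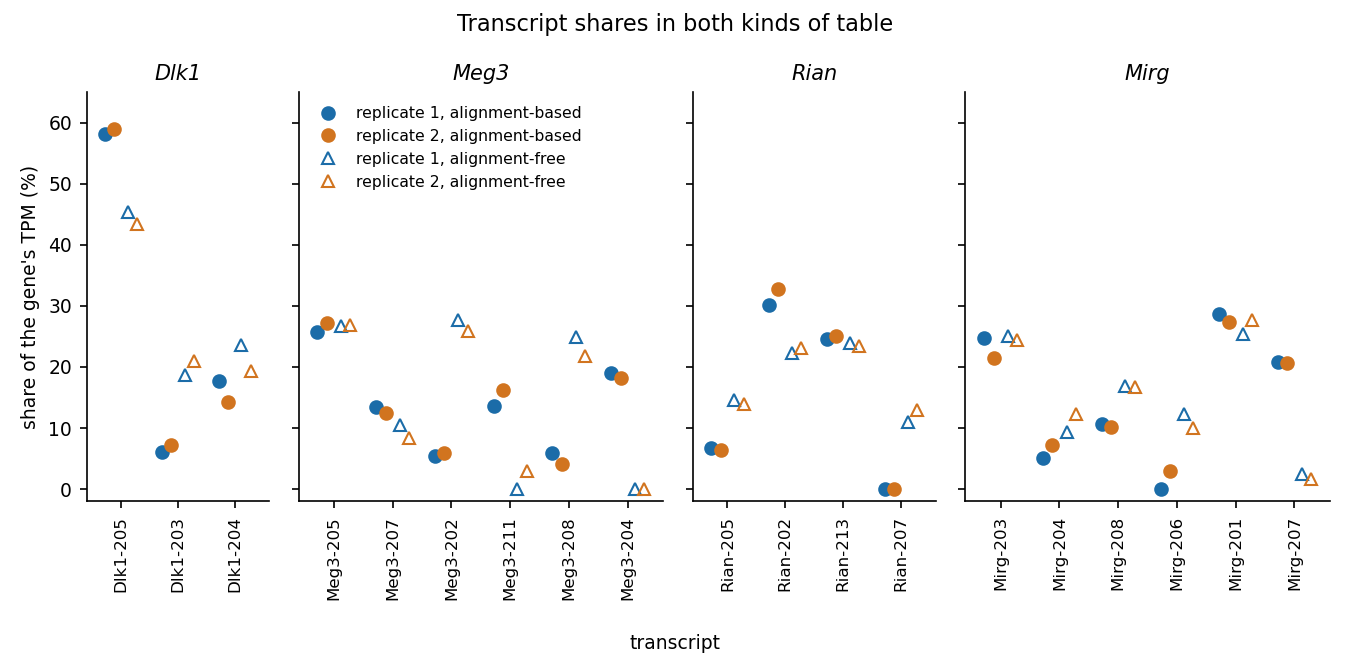
Share of each gene's TPM, in percent, taken by every transcript of Dlk1, Meg3, Rian and Mirg that reached 10% in either kind of table, with filled circles for alignment-based and open triangles for alignment-free values and replicate 1 left of replicate 2. The replicates lie close to each other, while the kinds of table differ by up to 21.2 percentage points for Meg3.

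Rian (ENSMUSG00000097451.10, chr12:109603940-109661716, plus strand), the host of a cluster of C/D snoRNAs, had 14797 counts and 309 TPM in replicate 1, and 16288 counts and 363 TPM in replicate 2. The log2 ratio was -0.20 with an interval of -0.23 to -0.17. The log2 ratio of Rian over Meg3 was -1.07 in replicate 1 and -1.31 in replicate 2 on the TPM scale. Against Dlk1 the log2 ratio was -0.34 and -0.19 in the alignment-based tables, but -0.16 and 0.0046 in the alignment-free ones. Of its 20 transcripts, Rian-202 took 30.2% and 32.7% of Rian TPM and Rian-213 24.6% and 24.99%. The alignment-free tables put Rian-213 first at 23.6% ± 0.33, with Rian-202 at 22.7% ± 0.62, Rian-205 at 14.3% and Rian-207 at 11.96%.

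Of 23 annotated snoRNA genes between Dlk1 and Dio3, 13 lie inside Rian on its strand and 1 inside Gm37899. All 23 have an effective length of 0 in the deposited tables and 0 counts, so their level was not measured.

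Mirg (ENSMUSG00000097391.8, chr12:109729764-109749460, plus strand), the miRNA-containing gene of the domain, had 1571 counts and 29.2 TPM in replicate 1, and 1694 counts and 36.4 TPM in replicate 2. The log2 ratio was -0.17 with an interval of -0.27 to -0.07. On the TPM scale its log2 ratio over Rian was -3.40 in replicate 1 and -3.32 in replicate 2. Mirg-201 led in both kinds of table, with 28.1% ± 0.91 of Mirg TPM in the alignment-based and 26.6% ± 1.60 in the alignment-free ones. Mirg-203 took 23.1% in the alignment-based tables and 24.8% in the alignment-free ones. Mirg-207 took 20.8% in the first kind and 2.08% in the second, the largest difference for this gene. Mirg-208 took 10.5% and 16.8% in the alignment-based and alignment-free tables, Mirg-204 6.19% and 10.8%, and Mirg-206 1.47% and 11.2%.

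Of the 67 miRNA genes, 14 lie inside Mirg on its strand, 4 inside Rian, 2 inside Meg3 and 6 opposite Rtl1, 1 lies on Rtl1's own strand, 1 opposite Mirg and 1 inside Dio3os, while 38 lie in no longer annotated gene. The 114 RefSeq entries fall into 104 seeds, 9 of them shared by different mature sequences. The following pairs are shown as examples of a shared seed.
miR-379-5p: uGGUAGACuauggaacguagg
miR-1193-5p: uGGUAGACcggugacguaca
miR-376c-5p: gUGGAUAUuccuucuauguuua
miR-376b-5p: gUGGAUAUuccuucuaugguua

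Long RNAs annotated between Rian and Mirg, or inside Rian, lay on the same strand as those genes and, like them, stood lower in replicate 1. Gm37899 had 1181 counts and 4.14 TPM in replicate 1, and 1425 counts and 5.54 TPM in replicate 2, with a log2 ratio of -0.33 and an interval of -0.44 to -0.22. B830012L14Rik had 275 counts and 1.88 TPM, and 367 counts and 2.79 TPM, with a log2 ratio of -0.47 and an interval of -0.71 to -0.25. Gm26945, inside an intron of Rian, had 224 and 238 counts, 3.54 and 4.17 TPM, and a log2 ratio of -0.15 with an interval of -0.42 to 0.12. All 3 stayed within 1.5-fold, a limit that 11.6% of all tested genes passed. Of all tested genes 50.0% were higher in replicate 2, so the shared direction of these few genes is a description only. Of the 112 other annotated genes between Dlk1 and Dio3, 17 had a count in either library and 9 reached 1 TPM in the alignment-based tables, of which 5 were miRNA genes. Those 5 had 1 to 29 counts and an effective length of 21 to 25 bases, so their TPM has little meaning.

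Outside the domain the levels were not uniform. Upstream of Dlk1, the synaptic gene Begain had 5.33 TPM in replicate 1 and 6.98 in replicate 2, Wdr25 2.54 and 1.20, the tryptophanyl-tRNA synthetase gene Wars 19.5 and 19.4, and the mitochondrial carrier gene Slc25a29 4.28 and 3.40. Wdr25, on 171 and 104 counts, was past 1.5-fold with the higher value in replicate 1. Its log2 ratio was 0.66 with an interval of 0.30 to 1.02. Slc25a47, a carrier gene known for expression in liver, had 113 counts and 4.53 TPM in replicate 1, and 608 counts and 15.9 TPM in replicate 2. Its log2 ratio of -2.48, with an interval of -2.79 to -2.20, stood beside liver markers that had a median log2 ratio of -4.71. Downstream of Dio3, the phosphatase subunit gene Ppp2r5c had 49.3 and 54.1 TPM, the dynein heavy chain gene Dync1h1 33.5 and 41.2, the chaperone gene Hsp90aa1 96.0 and 91.3, and Wdr20 15.6 and 16.9, while 1700001K19Rik had 0 counts in both libraries.

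Other imprinted genes gave a scale for the domain. They are called paternal or maternal here by the allele they are known to be expressed from in at least some tissues. The allele used in this gland was not measured. Of 33 imprinted genes from other places, none had a higher TPM than Meg3 in either library, while 25 had a higher one than Rtl1 and 31 than Dio3 in both. Above Dlk1 stood 1 gene in replicate 1, Cdkn1c, and 3 in replicate 2, H19, Cdkn1c and Igf2. Above Rian stood 2 genes in replicate 1 and 3 in replicate 2, and above Mirg 13 and 11. Cdkn1c, a maternally expressed cell cycle inhibitor, had 565 TPM in replicate 1 and 543 in replicate 2. The maternally expressed RNA H19 had 343 and 717 TPM with a log2 ratio of -0.98, and the paternally expressed growth factor Igf2 238 and 474 TPM with a log2 ratio of -0.92. Among the paternal genes 1 of 19 tested, Igf2, was past 1.5-fold with the higher value in replicate 2, and among the maternal genes 2 of 12 tested, H19 and the transporter gene Slc22a18, against 8.69% of all genes. Genes of the paternal list had a median log2 ratio of 0.02 and those of the maternal list of -0.05. Next in level came the paternal genes Peg10, Mest and Nnat at 171, 128 and 127 TPM and the maternal genes Grb10 and Ube3a at 102 and 54.8 TPM.

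**Figure D5:**
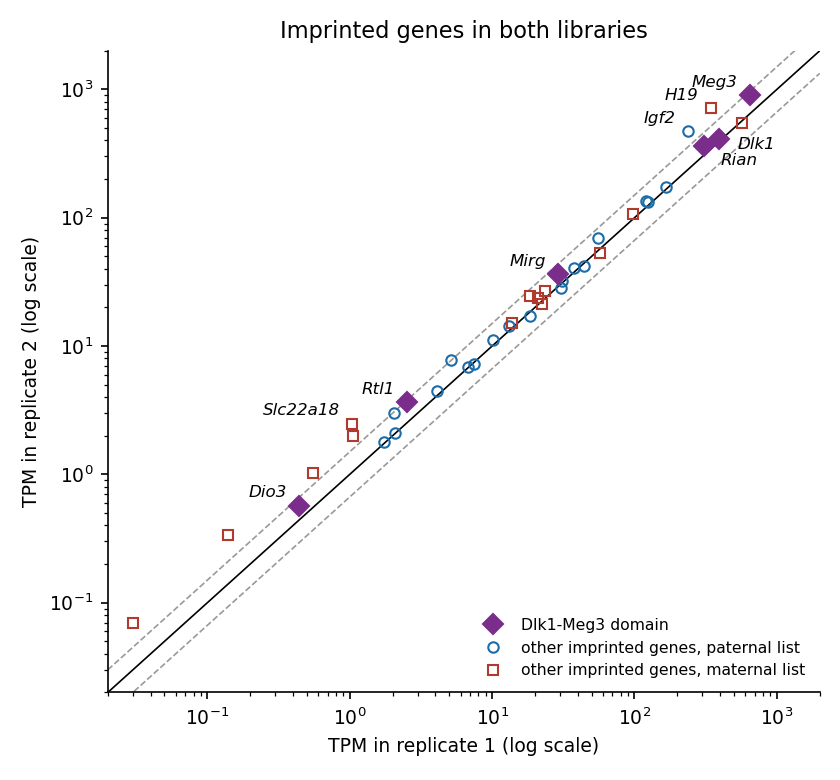
TPM in replicate 1 against TPM in replicate 2 on log axes for the domain genes (diamonds), 19 other genes listed as paternal (circles) and 14 listed as maternal (squares), with a line at equal values and dashed lines at 1.5-fold. H19, Igf2, Slc22a18, Zdbf2 and the low genes Tfpi2, Phlda2, Ascl2 and Calcr lie above the upper dashed line on this TPM scale, while the 6 domain genes lie between the equal line and the upper dashed line.

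Genes around each member's role were mostly expressed, and none of those tested was past 1.5-fold between the libraries, against 11.6% of all genes tested. Some differed by more than counting error, in both directions. Of all tested genes 81.5% were at 1 TPM or more and 41.2% had a counting interval of the log2 ratio that left out 0. Some lists also hold genes that did not pass the filter, so their counts at 1 TPM have a different base from this share. Of the 20 Notch pathway genes, listed because Dlk1 is a relative of Notch ligands, 18 were at 1 TPM or more with a median of 7.14 TPM, beside 7.36 TPM over all genes tested. The receptor Notch2 averaged 25.4 TPM, the protease Adam10 22.9 and the nuclear partner Rbpj 19.1. The protease Adam17, which releases Dlk1 from the membrane, had 18.4 TPM in replicate 1 and 17.3 in replicate 2. The closest relative Dlk2 stood at 0.30 and 0.19 TPM on 14 and 8 counts. The list's median log2 ratio was 0.08. The interval lay above 0 for 7 and below 0 for 2 of the 19 tested, and the ratios ran from -0.25 to 0.37.

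Of 16 genes of thyroid hormone handling, listed because Dio3 inactivates the hormone, 14 were at 1 TPM or more, beside 81.5% of all tested genes. The list's median log2 ratio was 0.00081. Of the 14 tested, however, the interval lay below 0 for 6 and above 0 for 4, from -0.49 for Sephs2 to 0.42 for the lipid gene Thrsp. The corepressor Ncor1 averaged 70.3 TPM, the receptor Thra 64.0, the selenium enzyme Sephs2 34.1 and the receptor partner Rxrb 25.1. The activating deiodinase Dio2 had 1.18 TPM in replicate 1 and 1.12 in replicate 2. Dio1 had 2 and 19 counts, 0.04 and 0.91 TPM, and was not among the genes tested.

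Genes for proteins that keep imprints were also expressed as RNA, with 14 of 15 at 1 TPM or more, beside 81.5% of all tested genes, and a median of 17.4 TPM. Trim28, the corepressor at imprinted regions, averaged 134 TPM. The zinc finger gene Zfp445 followed at 61.8 TPM, the methyltransferase gene Dnmt3a at 46.1 TPM and Ctcf at 26.1 TPM. Zfp57, which binds methylated imprinted regions, had 3.54 TPM in replicate 1 and 4.51 in replicate 2, and Aff3, known from mouse cells to bind regulatory elements of this domain, had 3.41 and 5.44. The list's median log2 ratio was 0.02, and of the 14 tested the interval lay below 0 for 3 and above 0 for 3.

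All 11 genes of the machinery for miRNAs and C/D snoRNAs were at 1 TPM or more, beside 81.5% of all tested genes. These 11 had a median of 27.3 TPM and a median log2 ratio of 0.04. The genes for the snoRNP proteins Nop58, Nop56, Snu13 and Fbl averaged 55.2, 41.8, 35.8 and 34.9 TPM. Over the 11 genes the interval lay below 0 for 2 and above 0 for 5. Of the 9 other genes of the Rtl family, 8 were at 1 TPM or more, beside the same 81.5%. Peg10, the imprinted relative of Rtl1, averaged 171 TPM, and Rtl8a, Rtl8c and Rtl8b 52.7, 38.6 and 34.1 TPM, all above Rtl1. The similar copies Rtl8a, Rtl8b and Rtl8c can exchange reads in these tables.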

How the data were processed

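Total RNA libraries of 2 replicates were compared. Input was 300 ng of RNA per library, with a strand-marking kit and added ERCC transcripts, per the labels. For each library the authors deposited gene and transcript tables made against mm10 and GENCODE M21, as their accompanying descriptions say. The sources used here do not give the programs or their settings. Expected counts, as the authors deposited them, divide reads among similar transcripts and hold fractions. The TPM deposited by the authors is scaled by effective length, so short RNAs weigh heavily. Protein-coding genes held 36.6% and 39.2% of alignment-based TPM, against 75.1% and 76.4% of alignment-free TPM. All 6 members had a higher TPM in the alignment-free tables. The mean log2 ratio of alignment-based over alignment-free TPM, with 0.1 added to each, ran from -1.07 for Rian to -0.54 for Dio3. The cause of this gap was not tested. The alignment-based tables have the layout RSEM writes, and the alignment-free ones that of kallisto, and were summed per gene.

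Counts were rounded and scaled in edgeR 4.0.16 (R 4.3.3) by TMM. The filter filterByExpr with a minimum count of 10 came first and kept 18160 genes, all 6 members among them. Rows that name no gene (26248 in a gene table) and spike-ins were left out of library sizes. Log2 ratios are replicate 1 over replicate 2 with a prior count of 0.5; intervals are exact Clopper-Pearson intervals at 95%, and intervals of TPM are exact Poisson intervals of the counts. The ratio step was tested on simulated data. No p-value was computed. Alternatives used DESeq2 1.42.0 size factors, spike-in sizes, TPM ratios, no filter, the alignment-free tables, rescaled TPM, count shares and each library alone.

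Named were all members, transcripts with a share of 10% or more in either kind of table, other domain genes of 1 TPM or more, the 5 nearest protein-coding genes on each side, and of each list the 4 highest and those past 1.5-fold; genes such as Adam17, Dlk2, Dio1, Dio2, Zfp57 and Aff3 were added after their values were seen. A gene that the rule would name is not reported here. Members and lists were chosen with earlier results of these data known. Transcript sequences are from GENCODE M21, miRNAs and promoters from RefSeq; 61 of the 67 annotated miRNA genes matched a RefSeq symbol.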

Additional observations from a re-analysis of the deposited data

How the results depend on the processing

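The members' median log2 ratio, replicate 1 over replicate 2, was below 0 in every alternative tried. It ranged from -0.31 with TPM ratios to -0.18 with alignment-free counts, and 0 of 6 members passed 1.5-fold in any of them. All alternatives reuse the same 2 libraries, so they do not show whether the direction would hold in other animals. Leaving out the filter could not change the value, because all 6 members pass it. TPM ratios shift the median of all genes by -0.100, and the members' values on that scale are to be read against it. The number detected was 5 with alignment-free values and in each library alone, and 6 with rescaled TPM or a level of 0.1 TPM. Summed TPM was 2847 in the alignment-free tables and 4071 after rescaling over protein-coding genes and members, and lay between 1383 and 1720.0 in single libraries. The maternal over paternal log2 ratio lay between 1.32 and 1.64 in single libraries, at 1.48 in the alignment-free tables and at 1.45 for counts without length scaling. Some shares moved by more than the replicate SD: in the alignment-free tables Dlk1-205 took 44.4%, Rian-202 22.7%, Mirg-201 26.6% and the whole-exon Dlk1 forms 50.01%. As shares of counts, Dlk1-205 and the whole-exon forms took 61.8%, Meg3-205 24.1%, Rian-202 48.2% and Mirg-201 31.9%; a share of counts favours long transcripts by construction, and the cause of the other moves was not tested. The share moved by less than the replicate SD for Meg3-205 in the alignment-free tables, at 26.8%, and for Dio3-202, at 93.6% there and 89.95% of counts. Single libraries gave 58.1% to 58.9% for Dlk1-205, 25.7% to 27.1% for Meg3-205, 30.2% to 32.7% for Rian-202, 27.4% to 28.7% for Mirg-201 and 73.7% to 100% for Dio3-202, which rests on 28 and 30 counts. No paired analysis was possible because the series has 1 group. With 2 libraries and no condition, the spread between animals is known only roughly, and the common biological coefficient of variation estimated over all genes was 0.233.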

Other observations

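In the alignment-based tables, no gene between Mirg and Dio3os reached the detection level of 1 TPM. Over 525924 bases this stretch holds 11 annotated genes, among them several non-coding genes on the minus strand. The highest count of any of them was 6.82 in replicate 1 and 11 in replicate 2, and the highest mean was 0.215 TPM. The alignment-free tables put 1 of the 11 above 1 TPM on average, the processed pseudogene Gm3379 with 0.80 TPM in replicate 1 and 1.36 TPM in replicate 2.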
